A study of Mus musculus with 24 samples.

Results

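Oocytes were compared with granulosa cells of the same kind of follicle: untreated, wild-type mouse ovarian follicles held in alginate, a polysaccharide gel, and grown to day 3 in medium with serum and FSH at 50 mIU/ml. The comparison used 8 of the 24 RNA sequencing libraries of the series, 4 of oocytes and 4 of granulosa cells, and covered all 17301 genes with enough counts to be tested out of 78298 in the deposited tables. The other 16 libraries came from follicles treated with blebbistatin at 20 µM, a blocker of myosin II, or with dextran at 10 kPa, and were used only to ask how far the same differences held there. Follicles larger than 180 µm were freed from the gel and taken apart by hand. Each oocyte library held 1 to 2 oocytes and each granulosa cell library a pool of many cells, so the oocyte values describe very few germ cells. The labels do not say whether replicates came from separate animals or cultures, and the p-values measure only the spread between these libraries.

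The growing follicle is a partnership of 1 germ cell and the somatic cells around it. The oocyte is held in meiotic arrest, builds the egg coat, stores RNA and protein for the embryo and secretes growth factors. Granulosa cells divide, make steroid hormones and inhibins under FSH, and feed the oocyte through fine extensions and gap junctions that cross the egg coat. The genes below are ordered by these roles.

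Markers of both cell types were where the labels place them. Gdf9, a growth factor secreted by oocytes, stood at 8556, 8291, 7095 and 3947 CPM (counts scaled to a common library total) in oocyte replicates 1 to 4 and at 0.427, 0.784, 0.852 and 0.824 CPM in granulosa cell replicates 1 to 4. Zp3, a protein of the egg coat, stood at 2487, 2712, 2645 and 2557 CPM in oocytes and at 0.213, 0.206, 0 and 0 CPM in granulosa cells. Inha, the inhibin alpha subunit, stood at 14689, 14301, 16712 and 15052 CPM in granulosa cells and at 324, 1838, 39.7 and 12.8 CPM in oocytes. Fshr, the FSH receptor, stood at 52.0, 70.6, 67.7 and 58.3 CPM in granulosa cells and at 0.853, 3.96, 0.132 and 0 CPM in oocytes. The 4 libraries of each cell type were apart from those of the other for every one of these genes. Most tested genes differed between the cell types, and the share so separated is not given here. All 20 listed oocyte markers were called higher in oocytes, and 15 of 20 listed granulosa cell markers were called higher in granulosa cells.

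Granulosa cell transcripts were present in the oocyte libraries in unequal amounts. Over the 20 granulosa cell markers, the median level in oocyte replicates 1 to 4 was 4.09%, 14.1%, 0.271% and 0.093% of the granulosa cell mean. Replicate 2 was thus highest and replicate 1 next, and 8 markers were at 0 in replicate 4. In the opposite direction the 20 oocyte markers summed to 2.81 to 4.71 CPM in granulosa cell libraries, at most 0.0131% of their sum in oocytes. Of the 4797 genes called higher in granulosa cells, 3776 (78.7%) had their highest oocyte level in replicate 2. For this reason the log2 difference of a granulosa-high gene is given also without oocyte replicates 1 and 2 where that moved a printed value by over 1.5 times. Whether these transcripts came from attached cells, from their extensions or from the oocyte was not tested.

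**Figure D1:**
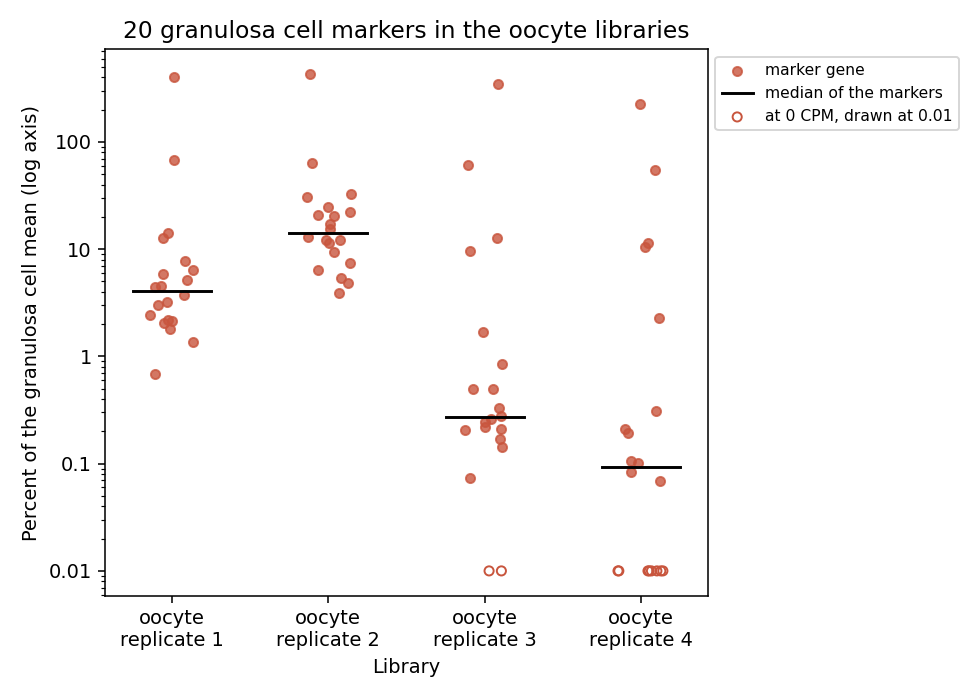
Level of each of the 20 granulosa cell markers (points) in each oocyte library, as a percent of its mean over the 4 granulosa cell libraries, on a log axis. The median (bar) falls from 14.1% in oocyte replicate 2 to 0.093% in replicate 4; the 2 highest points in each library are Cyp19a1 and Esr2.

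Other cells of the ovary were looked for through their own marker lists. Of the theca cell markers, the defining genes Cyp17a1 and Insl3 were too low to be tested, while Hsd3b1, Fam13a, Ephx1, Aldh1a1 and Ptch1 were higher in granulosa cells. Stromal markers differed among the granulosa cell libraries: Col1a1 stood at 85.9, 2.72, 5.28 and 71.7 CPM and Col3a1 at 30.8, 0.743, 7.15 and 67.3 CPM in replicates 1 to 4. Replicates 1 and 4 were thus the high ones, and the summed stromal list ran from 26.6 to 395 CPM. The leukocyte gene Ptprc and the theca gene Insl3 had at most 1 count in any control library. Other markers of these cells did have counts. The macrophage gene C1qb had 497 to 709 counts in the oocyte libraries, and Lyz2 had 124 in granulosa cell replicate 4. Cyp17a1 had 21 in granulosa cell replicate 1. The part that such cells have in the results was not tested.

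Of the 17301 genes, 7853 (45.4%) were higher in oocytes and 6429 (37.2%) in granulosa cells by edgeR's quasi-likelihood test at a Benjamini-Hochberg adjusted p under 0.05. Because most genes differ at that level, a stricter test was used for the calls below: a difference shown to be over 2-fold, at the same threshold. By that test 6382 genes (36.9%) were higher in oocytes and 4797 (27.7%) in granulosa cells, and 6122 were neither. In bulk libraries, fewer cells of a type and less RNA per cell cannot be told apart, and each value is a share of its library. These shares of genes called are the background against which every list below is read. Adjusted p-values printed below are from this 2-fold test, and log2 differences are oocyte minus granulosa cell.

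The 2 directions differed in size. Of the oocyte-high genes, 1945 (30.5%) had no count in any granulosa cell library, and 1222 were over 100-fold higher by the fitted difference. Of the granulosa-high genes, 120 (2.50%) had no count in any oocyte library, and 21 were over 100-fold higher. This contrast was smaller without oocyte replicates 1 and 2, which held the most granulosa cell transcripts: without them 627 of 5976 granulosa-high genes and 1229 of 6519 oocyte-high genes were over 100-fold, and 1724 granulosa-high genes (28.8%) had no count in oocyte replicates 3 and 4, a pair of libraries and not 4. Oocyte libraries also held more genes at 1 CPM or more, 14200 to 15154 against 12885 to 13413 in granulosa cells (exact two-sided permutation test, p = 0.0286, the smallest that 4 against 4 libraries allow, adjusted p = 0.0343 over 12 library measures).

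**Figure D2:**
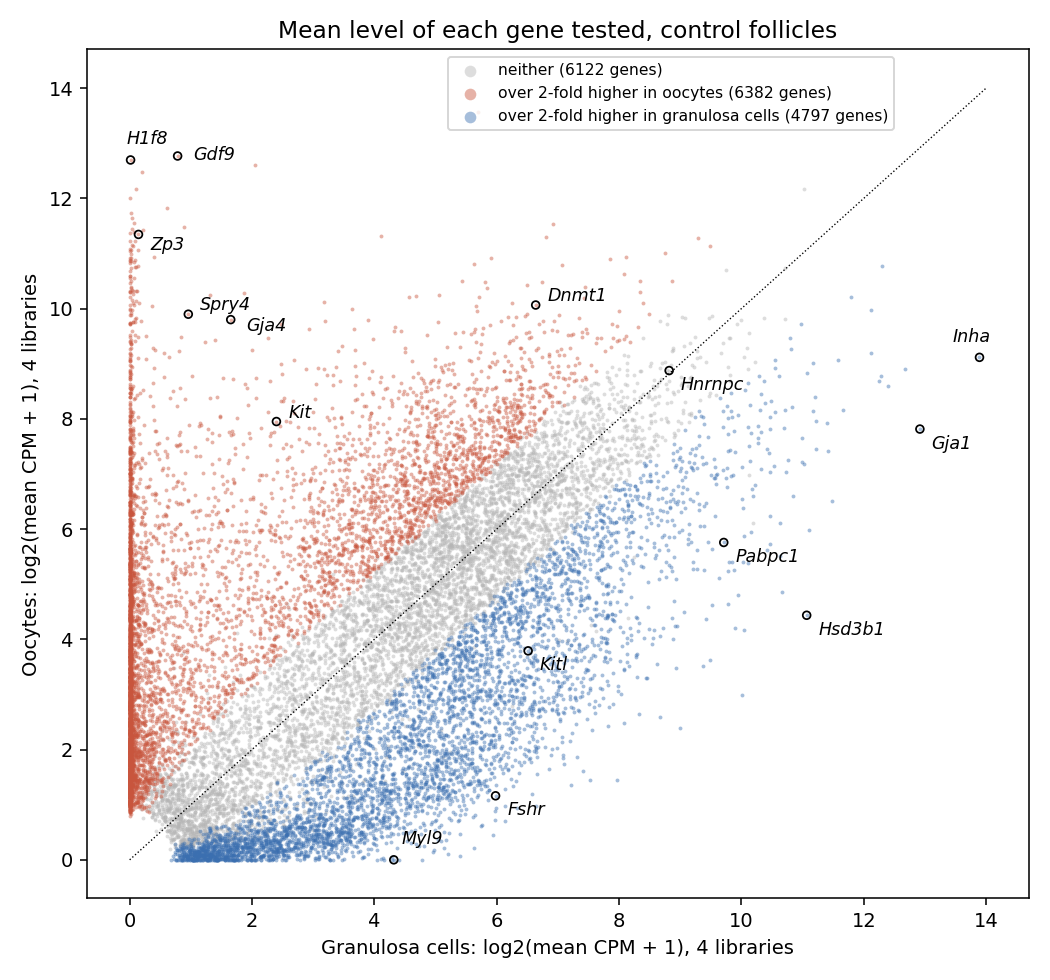
Mean level of every tested gene in granulosa cells (x) and oocytes (y), each as log2(mean CPM + 1) over 4 libraries, coloured by the 2-fold call. Oocyte-high genes crowd the left edge, where granulosa cells hold no count, whereas Inha, Gja1 and many other granulosa-high genes keep a level above 0 in the oocyte mean.

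The 12 oocyte-high genes of largest difference were H1f8, Ezhip, Oas1d, Obox2, Tcl1, Misfadt, Khdc1b, Ube2q2l, Nlrp14, Rfpl4, Umodl1 and Obox1. H1f8, the oocyte linker histone, stood at 6442, 5800, 7541 and 6746 CPM in oocytes and had 1 count in all granulosa cell libraries together. The ratio was 642546, with a 95% counting interval from 115324 to 25379281. Ezhip, an inhibitor of a Polycomb complex, was at least 71100-fold higher and Oas1d at least 64700-fold higher, both with no count in granulosa cells (bounds here use a floor of 3 counts over the 4 libraries). Below these 12, Padi6, an enzyme of the oocyte's cytoplasmic lattices, stood at 1771, 2106, 1855 and 1986 CPM in oocytes, also against 1 count.

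The genes furthest towards granulosa cells were of another kind, and many varied among libraries. Hsd3b1, a dehydrogenase of steroid synthesis, stood at 2705, 678, 3299 and 1890 CPM in granulosa cells and at 15.4, 64.7, 1.98 and 0.489 CPM in oocytes. Its log2 difference was -6.69 ± 1.47 (SE, n = 4 against 4, adjusted p = 0.00387) and -10.69 without oocyte replicates 1 and 2. Grb14, an adaptor of the insulin receptor, stood at 411, 773, 651 and 2268 CPM in granulosa cells and at 1.28 to 18.5 CPM in oocytes. The protease Prss23 was likewise highest in granulosa cell replicate 4, at 1127 CPM. The 12 largest differences also include the stromal collagens Col1a1, Col3a1 and Col1a2, the smooth muscle actin Acta2 and the globin Cygb, 5 genes that were lowest in granulosa cell replicate 2, and Mug2, Otof, Itih5 and Eda2r.

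Signals from oocyte to granulosa cell were the clearest of the secreted factors. All 4 tested of 6 listed oocyte-secreted growth factors were higher in oocytes. Bmp15, the partner of Gdf9, stood at 1746, 2382, 1662 and 1077 CPM in oocytes and was at 0 in 3 granulosa cell libraries and at 0.289 CPM in the other. Fgf8 stood at 201, 131, 197 and 188 CPM, at least 5330-fold higher than in granulosa cells. Bmp6 was less one-sided, with 55.3 to 59.7 CPM in oocytes and 2.58 to 7.89 CPM in granulosa cells. Outside that list, Tgfb2, a TGF-beta ligand, stood at 576, 613, 545 and 493 CPM in oocytes and at no more than 1.43 CPM in granulosa cells (log2 difference 9.74 ± 0.72, adjusted p = 5.84e-06).

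The receptors of these ligands were divided. Bmpr2, the type II receptor of GDF9 and BMP15, stood at 184, 180, 259 and 363 CPM in granulosa cells and at 58.5, 78.2, 34.4 and 43.4 CPM in oocytes, and passed the test (log2 difference -2.20 ± 0.32, adjusted p = 0.00167). Tgfbr1, a type I receptor, was also higher in granulosa cells (-2.20, adjusted p = 0.00955, and -2.86 without oocyte replicates 1 and 2). Bmpr1b, another type I receptor, was not called, at 160 to 279 CPM in oocytes and 133 to 325 CPM in granulosa cells. Smad3 and Smad2, which carry the signal of GDF9 and activin, were higher in oocytes by 2.68 and 1.22 on the log2 scale. Smad2 lost the 2-fold call without oocyte replicates 1 and 2, at 1.11 (adjusted p = 0.0931), and was not called at 2-fold in blebbistatin or dextran follicles. Their inhibitors Smad6 and Smad7 and the BMP targets Id1, Id2 and Id3 were higher in granulosa cells. Of the 22 tested TGF-beta receptors and SMADs, 3 were higher in oocytes and 8 in granulosa cells, with a median log2 difference of -1.02 against 0.26 over all genes tested.

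Most of the listed inhibins, activins and related ligands and binders lay on the granulosa side, 10 of 15 tested, with 3 higher in oocytes. Those 3 include the TGF-beta ligand Tgfb2, which is neither an inhibin nor an activin. Inha was 27.4-fold higher in granulosa cells by means (log2 difference -4.78 ± 1.39, adjusted p = 0.0172), and the log2 difference was -9.20 without oocyte replicates 1 and 2. Without oocyte replicate 1 alone it missed the 2-fold call, at -4.56 (adjusted p = 0.0515). The activin subunit Inhba stood at 1264, 314, 2329 and 293 CPM in granulosa cells and at 22.8, 41.1, 2.57 and 1.10 CPM in oocytes. The activin binder Fst stood at 258 to 483 CPM in granulosa cells and passed the test at -5.30, and at -9.85 without oocyte replicates 1 and 2. Amh, the anti-Müllerian hormone, did not pass at -3.34 (adjusted p = 0.0889), with 310, 260, 93.2 and 74.1 CPM in granulosa cells and 11.8, 59.8, 0.922 and 0 CPM in oocytes. Its receptor Amhr2 did not pass either at -3.81 (adjusted p = 0.0507). Without oocyte replicates 1 and 2 the log2 differences were -8.43 and -9.21. Those 2 libraries were left out for holding the most granulosa cell transcripts, so that fit is no separate test of these genes.

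Kit signalling ran the other way. Kitl, the ligand that granulosa cells present to the oocyte, stood at 133, 73.9, 95 and 59.2 CPM in granulosa cells and at 11.2, 23.1, 6.91 and 10.1 CPM in oocytes. Kit, its receptor, stood at 250, 382, 173 and 180 CPM in oocytes and at 1.62, 6.32, 2.90 and 6.26 CPM in granulosa cells. Both passed (log2 difference -2.80 ± 0.42 for Kitl and 5.82 ± 0.53 for Kit, adjusted p = 0.00103 and 2.84e-05). For Kitl the log2 difference was -3.42 without oocyte replicates 1 and 2. Igf1 and its receptor Igf1r were both higher in granulosa cells, at 287 to 347 CPM and 160 to 184 CPM there. Igf1 lost the 2-fold call in 6 of the 8 fits that left out 1 library, at an adjusted p of up to 0.109. Its log2 difference was -9.85 without oocyte replicates 1 and 2. Fgfr2 and Egfr were higher in oocytes, by 3.10 and 1.37 on the log2 scale, and Egfr lost the 2-fold call without oocyte replicates 1 and 2, at 1.29 (adjusted p = 0.076). Spry4, a feedback inhibitor induced by FGF signalling, stood at 1082, 979, 898 and 853 CPM in oocytes and at 3.37, 0.0826, 0.0426 and 0.275 CPM in granulosa cells.

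Notch and hedgehog genes were called in both directions. The Notch ligands Jag1, Jag2 and Dll3 were higher in oocytes, and Jag1 stood at 347, 373, 308 and 309 CPM there against 0.714 to 2.38 CPM in granulosa cells. The receptor Notch2 and the target genes Hey2, Heyl and Hes1 were higher in granulosa cells, and Hey2 stood at 78.4, 53.8, 88.6 and 83.7 CPM there against 5.19 to 16.2 CPM in oocytes. Notch1 went the other way, higher in oocytes. Mfng, a glycosyltransferase that modifies Notch, was at least 1930-fold higher in oocytes. The hedgehog ligands Ihh and Dhh and the pathway genes Ptch1 and Smo were higher in granulosa cells, whereas Shh and Gli3 were called for oocytes. In all 7 of 18 tested members were higher in oocytes and 8 in granulosa cells. These shares were 38.9% and 44.4%, against 36.9% and 27.7% over all genes tested.

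**Figure D3:**
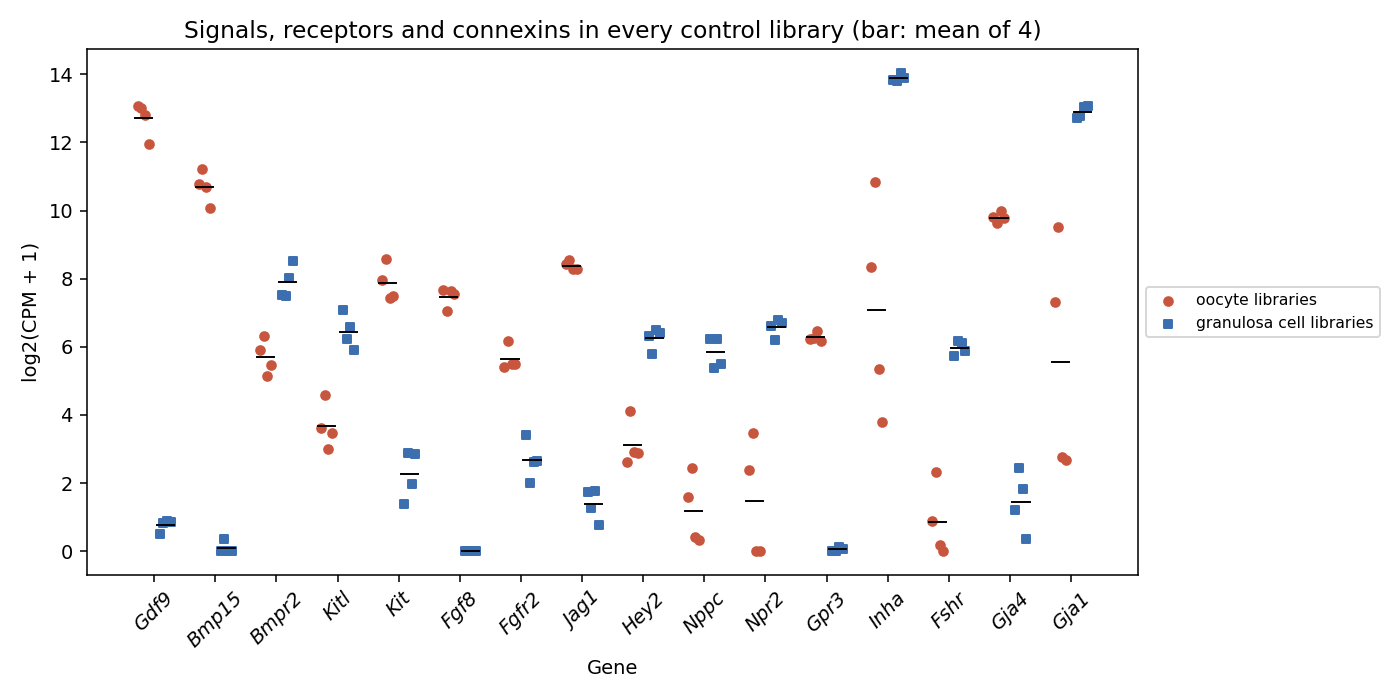
Level of 16 signalling and junction genes in each of the 4 oocyte and 4 granulosa cell libraries, as log2(CPM + 1), with the mean as a bar. Ligand and receptor fall on opposite sides for Kitl and Kit, both Nppc and Npr2 fall on the granulosa side, and the oocyte points of Inha, Fshr, Npr2 and Gja1 spread over a wide range.

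The cells are joined by gap junctions, channels built of connexins. Gja1, the connexin of granulosa cells, stood at 6750, 7036, 8463 and 8675 CPM in granulosa cells and at 159, 726, 5.73 and 5.38 CPM in oocytes (log2 difference -5.11 ± 1.51, adjusted p = 0.0176, and -10.44 without oocyte replicates 1 and 2). Gja1 missed the 2-fold call without oocyte replicate 1 alone, at -4.95 (adjusted p = 0.0521). Gja4, the connexin of the oocyte side, stood at 888, 790, 1009 and 872 CPM in oocytes and at 1.32, 4.46, 2.51 and 0.275 CPM in granulosa cells (8.61 ± 0.76, adjusted p = 1.95e-05). In contrast to Gja1, the oocyte libraries agreed closely on Gja4. Gjc1 was the other connexin higher in granulosa cells, and Gjb1, Gjb2 and the pannexin Panx2 were among the members higher in oocytes.

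Adhesion genes differed in which cadherin each cell carried. Cdh1, E-cadherin, stood at 130, 188, 122 and 110 CPM in oocytes and was at 0 in 3 granulosa cell libraries and at 0.213 CPM in the other. Cdh2, N-cadherin, was shared, at 44.2 to 86.7 CPM in oocytes and 61.6 to 115 CPM in granulosa cells, and was not called. Cdh3 and the nectin Nectin3 were higher in oocytes and Nectin1 in granulosa cells, while the catenins Ctnna1, Ctnnb1 and Ctnnd1 were not called. Of the genes for filopodia, from which granulosa cell extensions are built, the actin bundler Fscn1 stood at 776, 712, 581 and 285 CPM in granulosa cells and at 29.7, 110, 4.81 and 5.63 CPM in oocytes. Myo10, a filopodial motor, was not called, at 194 to 224 CPM and 127 to 172 CPM, and Daam1, a formin, was higher in oocytes by 3.07. Among 14 tested genes of this list 4 (28.6%) were called each way, against 36.9% for oocytes and 27.7% for granulosa cells over all genes tested.

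Genes of the meiotic arrest were divided between the cell types. Gpr3, the receptor that keeps cAMP high in the oocyte, stood at 74.1, 75.9, 86.6 and 70.6 CPM in oocytes and at no more than 0.0852 CPM in granulosa cells. Pde3a, the cAMP phosphodiesterase of the oocyte, stood at 69.2, 109, 82.3 and 76.3 CPM in oocytes and at 0.384 to 2.18 CPM in granulosa cells. Nppc, the peptide that raises cGMP in follicles, stood at 74.4, 40.5, 73.9 and 44.0 CPM in granulosa cells and at 2.02, 4.42, 0.329 and 0.245 CPM in oocytes. Npr2, its receptor, stood at 97.3, 73.0, 110 and 103 CPM in granulosa cells and at 4.19, 10.0, 0 and 0 CPM in oocytes. Of the 10 tested genes of the cGMP source, 7 were higher in granulosa cells, including Impdh1, Impdh2 and Pde5a, and Prkg1 and Abcc4 were higher in oocytes. Adcy3, an adenylyl cyclase, was higher in granulosa cells, at a log2 difference of -3.07.

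Genes of meiotic resumption were mostly higher in oocytes. Mos, the kinase that starts the MAP kinase cascade of maturation, stood at 887, 647, 1006 and 885 CPM in oocytes with no count in granulosa cells, at least 25500-fold higher. Wee2, Fbxo43 and Aurkc were higher by 12.34, 10.29 and 10.43, and Ccnb1, Plk1 and Bub1b were called in the same direction. Cdk1, Cdc20 and Cdc25b were not called at 2-fold. In all 15 of 25 tested members were higher in oocytes (60.0%) and 2 in granulosa cells. Of 20 tested genes of meiotic chromosomes, 15 were higher in oocytes, among them Tex12 and Sycp3 of the synaptonemal complex. Rec8, the meiotic cohesin, was not among them, with 3.89, 1.28, 14.4 and 1.43 CPM in granulosa cells and 0, 0.594, 0 and 0 CPM in oocytes.

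Maternal RNA stores and germ cell genes were mostly on the oocyte side. Of 22 tested genes of RNA storage and decay, 16 were higher in oocytes (median log2 difference 5.00), with Zar1 at 2639, 2424, 3164 and 2777 CPM and Btg4 at 2323, 2340, 2148 and 2164 CPM there. Tut4, Zfp36l2 and Ddx6 were among the 4 higher in granulosa cells. All 8 tested genes of the subcortical maternal complex, a protein assembly needed by the early embryo, were higher in oocytes. Of the oocyte transcription factors, 15 of 16 were, with Nobox at 879 to 1074 CPM and Figla at 14.3 to 25.9 CPM in oocytes. Taf4b was the exception, at 19.3 to 47.5 CPM in oocytes and 42.6 to 85.3 CPM in granulosa cells. All 32 tested members of the oocyte multigene families (Oog, Oosp, Nlrp, Obox, Khdc1 and Tcl1b genes) were called for oocytes, but near-identical copies may share reads, so the level of any 1 member is uncertain.

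Genes that write and read DNA methylation went both ways. Dnmt1, the maintenance methylase, stood at 1060, 1276, 960 and 982 CPM in oocytes and at 88.3, 115, 93.4 and 97.7 CPM in granulosa cells (log2 difference 3.44 ± 0.15, adjusted p = 5.80e-07). Dnmt3l, Dppa3, Tet3, Kdm1b and Uhrf1 were higher in oocytes, whereas Tet1, Ehmt2, Kdm5b and Uhrf2 were higher in granulosa cells. Of 24 tested members 10 (41.7%) were higher in oocytes and 6 (25%) in granulosa cells. These shares were near those over all genes tested, 36.9% and 27.7%. The X inactivation RNA Xist stood at 42.8, 23.8, 53.1 and 50.7 CPM in granulosa cells and at 1.32, 3.10, 0 and 0 CPM in oocytes. Tsix was called in the same direction, but the genes overlap on opposite strands and reads from them cannot be told apart unless strand was used in counting. Mest, an imprinted gene expressed from the paternal copy in somatic cells, stood at 459, 371, 415 and 343 CPM in oocytes and at 3.10 to 13.9 CPM in granulosa cells, while Peg3, Snrpn and Ndn were higher in granulosa cells.

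A set of 20 related gene pairs was set side by side. The first form of a pair is known from somatic cells, and the second is known from germ cells, except for Gja4, Cdh1 and Ldhb, which other tissues also use. The second form was called higher in oocytes in 17 of 20 pairs, and in 15 of 17 without those 3. The first form was called neither way in 11 pairs, higher in oocytes in 6 and higher in granulosa cells in 3. The first form was called for granulosa cells and the second for oocytes in 2 pairs, Gja1 with Gja4 and Pabpc1 with Pabpc1l. Pabpc1, the poly(A) binding protein of somatic cells, stood at 773, 852, 786 and 937 CPM in granulosa cells and at 46.2, 134, 17.9 and 14.1 CPM in oocytes, and Pabpc1l stood at 158, 200, 180 and 190 CPM in oocytes against at most 0.128 CPM. In 10 pairs, or 9 without Gja4, Cdh1 and Ldhb, the second form was called for oocytes and the first neither way. Eif4e stood at 385 to 578 CPM in oocytes and 273 to 295 CPM in granulosa cells, whereas Eif4e1b stood at 641 to 674 CPM in oocytes against 1 count. In the pair of Rad21 and Rec8 the germline form was the granulosa-high one.

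**Figure D4:**
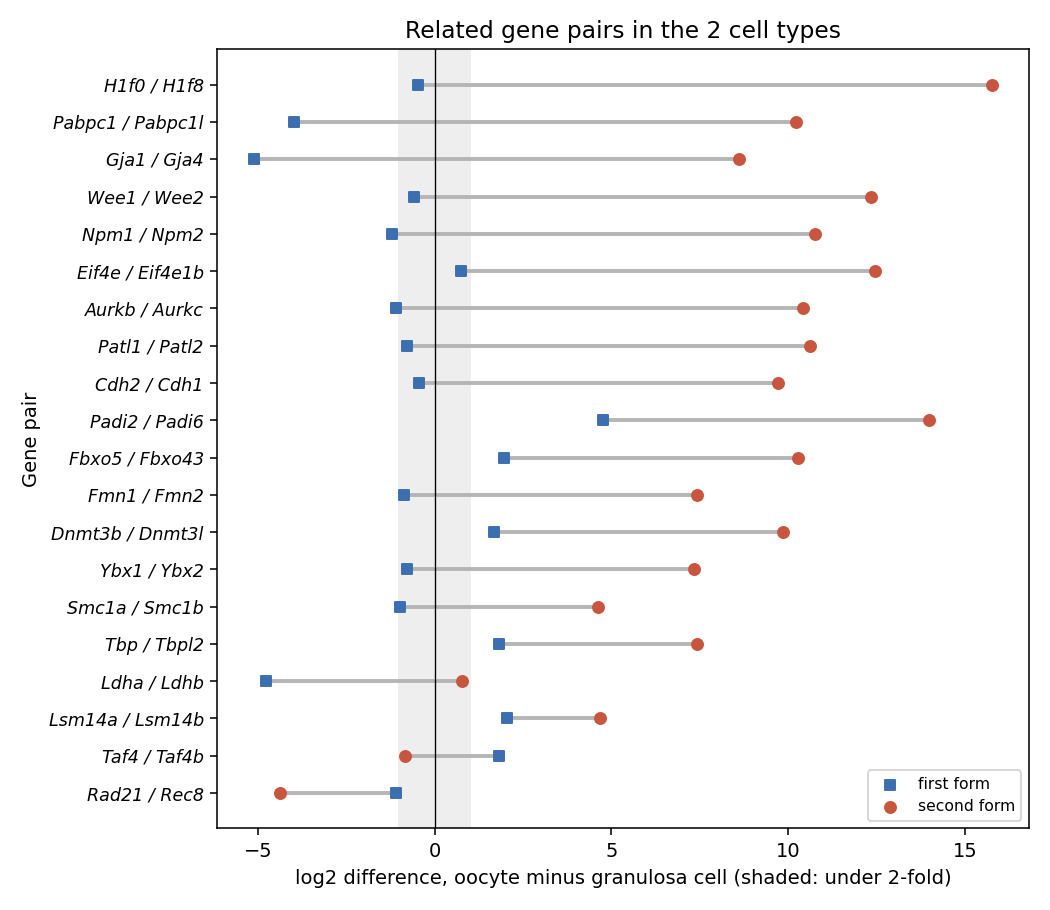
Log2 difference (oocyte minus granulosa cell) of the first form (squares) and the second form (circles) of 20 related gene pairs, ordered by the gap between them. Most circles lie far to the right of squares that stay near 0; Taf4b and Rec8 are the 2 circles left of their squares.

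Granulosa identity and hormone response genes were next. Of 20 tested granulosa transcription factors 16 were higher in granulosa cells, and none in oocytes by the 2-fold test and 2 by the plain one (median log2 difference -3.69, and -5.35 without oocyte replicates 1 and 2). Foxl2, the factor that maintains granulosa fate, stood at 28.7, 25.2, 24.4 and 11.9 CPM in granulosa cells and at 1.01, 5.61, 0 and 0 CPM in oocytes (log2 difference -3.69 ± 1.28, adjusted p = 0.0366). Without oocyte replicates 1 and 2 its log2 difference was -7.84. The 2-fold call was lost in 5 of the 8 fits that left out 1 library, at an adjusted p of up to 0.0937. Nr5a2, a regulator of steroid genes, stood at 251 to 274 CPM in granulosa cells and 29.4 to 53.8 CPM in oocytes. Esr2, the estrogen receptor of granulosa cells, was not called at 2-fold, at 224, 227, 225 and 281 CPM in granulosa cells and 161, 152, 145 and 131 CPM in oocytes.

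Steroid genes did not move as a block. Hsd17b1, which makes estradiol, stood at 1260, 948, 1370 and 582 CPM in granulosa cells and at 38.7, 120, 5.14 and 2.20 CPM in oocytes. Cyp19a1, aromatase, was not called, with 15.5, 0.454, 16.1 and 0 CPM in granulosa cells and 32.1, 34.2, 27.8 and 18 CPM in oocytes. The oocyte libraries were thus the higher ones and the granulosa cell libraries fell into 2 high and 2 near 0. Cyp11a1 and Star, which start steroid synthesis, were low in both cell types, at no more than 1.71 CPM in oocytes and 7.41 CPM in granulosa cells. Of the 24 tested genes of FSH response and steroidogenesis, 11 were higher in granulosa cells and 4 in oocytes. That list also holds genes outside steroid synthesis, Fshr among them, so it is not a count of steroid genes alone.

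Glycolysis genes were higher in granulosa cells. Of 19 tested genes 15 were (78.9%), and none was higher in oocytes by the 2-fold test and 1 by the plain one (median log2 difference -2.85, and -3.67 without oocyte replicates 1 and 2). Ldha, the lactate dehydrogenase subunit, stood at 1789, 1124, 2072 and 652 CPM in granulosa cells and at 84.9, 108, 11.5 and 2.38 CPM in oocytes (-4.76 ± 1.10, adjusted p = 0.00582, and -7.67 without oocyte replicates 1 and 2). Eno1, enolase, stood at 4099, 2537, 4771 and 1515 CPM in granulosa cells and at 375, 395, 188 and 179 CPM in oocytes. Granulosa cell replicates 1 and 3 were the high ones for both. The heart-type subunit Ldhb was shared, with 809 to 1092 CPM in oocytes and 489 to 653 CPM in granulosa cells, as was Mpc1 of the mitochondrial pyruvate carrier. Pdhx, part of pyruvate dehydrogenase, was higher in oocytes at 432, 368, 380 and 344 CPM against 60.9 to 63.4 CPM. The monocarboxylate carrier Slc16a1 was higher in granulosa cells, at -2.65.

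Cholesterol synthesis leaned the same way, with 13 of 24 members higher in granulosa cells and 1 in oocytes. Cyp51 stood at 254, 349, 320 and 179 CPM in granulosa cells and at 12.9, 55.4, 12.9 and 14.1 CPM in oocytes. Fdft1, squalene synthase, was the exception at 960 to 1010 CPM in oocytes and 140 to 321 CPM in granulosa cells. Of the amino acid carriers, Slc38a3, which supplies amino acids to the oocyte through granulosa cells, stood at 8.50, 89.4, 33.4 and 188 CPM in granulosa cells and at 0, 3.30, 0.329 and 0 CPM in oocytes. Slc6a9, the glycine carrier of oocytes, stood at 373, 353, 366 and 354 CPM in oocytes and 36.7 to 67.8 CPM in granulosa cells. Slc7a11, the cystine carrier, was higher in oocytes by 5.69.

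Transcripts of the mitochondrial genome and of ribosomal proteins took a larger share of the granulosa cell libraries. All 12 tested mitochondrially encoded genes were higher in granulosa cells, and together they took 2.24% to 4.03% of counts there against 0.2245%, 0.4426%, 0.04256% and 0.08711% in oocyte replicates 1 to 4. Oocyte replicates 2 and 1 were the highest, as for the granulosa cell markers, while replicates 3 and 4 stood in the opposite order. The median log2 difference of the 12 was -3.54, and -5.09 without oocyte replicates 1 and 2. Of 50 cytosolic ribosomal protein genes 45 were higher in granulosa cells, and none was higher in oocytes by either test. The list took 3.70% to 3.97% of counts in granulosa cells against 0.717% to 0.910% in oocytes (exact two-sided permutation test, p = 0.0286, adjusted p = 0.0343 over 12 measures, for both shares). Ribosomal protein genes have many near-identical pseudogenes, with which reads may be shared. In nuclear genes of oxidative phosphorylation the difference was smaller, with 13 of 34 called for granulosa cells and a median of -0.92.

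Proliferation genes were mixed. Mki67 stood at 173, 138, 143 and 128 CPM in granulosa cells and at 21.3, 39.8, 37.5 and 56.9 CPM in oocytes, and Ccnd2, the cyclin induced by FSH, at 1620, 1275, 1477 and 715 CPM against 192, 299, 41.6 and 8.13 CPM. Birc5 and Cdt1 were higher in oocytes, by 2.25 and 1.80. Of 34 tested members 8 were higher in granulosa cells (23.5%) and 4 in oocytes (11.8%). Without oocyte replicates 1 and 2 the granulosa count rose to 13, and the oocyte count was 4. Of the gene lists counted here, the proteasome list had the highest share of members called neither way, with 19 of 22. The proteasome subunits Psmd14 and Psma3 were higher in granulosa cells, at log2 differences of -1.80 and -1.28, and 5 members were without oocyte replicates 1 and 2. The deubiquitinase Uchl1 was higher in oocytes, at 968, 907, 1135 and 1234 CPM in oocytes and 43.5 to 54.3 CPM in granulosa cells.

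The cytoskeleton and matrix genes that bear on the study's subject, follicle mechanics, were also split. Of 24 actomyosin genes 14 were higher in granulosa cells and 5 in oocytes. Actb stood at 1463, 1327, 1403 and 1746 CPM in granulosa cells and at 123, 251, 89.6 and 98.5 CPM in oocytes (log2 difference -3.40 ± 0.35, adjusted p = 9.38e-05, and -4.01 without oocyte replicates 1 and 2). The myosin II heavy chains Myh9 and Myh10 were higher in granulosa cells, at log2 differences of -1.57 and -3.23 (-3.94 for Myh10 without oocyte replicates 1 and 2), and Myh14 in oocytes, at 5.37. Of the oocyte spindle actin genes, Fmn2 stood at 106, 117, 83.6 and 107 CPM and Myo5b at 334, 357, 317 and 331 CPM in oocytes, with no count of Myo5b in granulosa cells. Yap1 was higher in oocytes at 118 to 162 CPM against 20.5 to 23.7 CPM, whereas its target Ccn1 and the kinases Lats1 and Lats2 were higher in granulosa cells. Its relative Wwtr1 was not called.

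Of the 21 tested genes of integrins and focal adhesion, 12 were higher in granulosa cells and 3 in oocytes. Itga9 stood at 479, 456, 380 and 446 CPM and Itga6 at 121 to 167 CPM in oocytes, and Itgb1, the common beta subunit, at 212 to 259 CPM in granulosa cells against 28.1 to 94.0 CPM in oocytes. Of the basement membrane genes, 11 of 22 were higher in granulosa cells and 5 in oocytes. Lama1 stood at 103, 90.4, 81.5 and 63.4 CPM in granulosa cells, and Lamb1 stood at 708, 918, 706 and 672 CPM in oocytes against 25.6 to 72.8 CPM. Col4a1 was not called, at 15.5, 1.78, 2.68 and 16.1 CPM in granulosa cells, high in the replicates that were high in stromal markers. The immediate early genes Fos and Jun, which respond within minutes to handling or stimulation, were higher in granulosa cells, Jun at 57.5, 30.9, 76.6 and 111 CPM against at most 0.930 CPM in oocytes. Dusp1 was the reverse, at 193 to 240 CPM in oocytes and 2.31 to 11.2 CPM in granulosa cells.

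**Figure D5:**
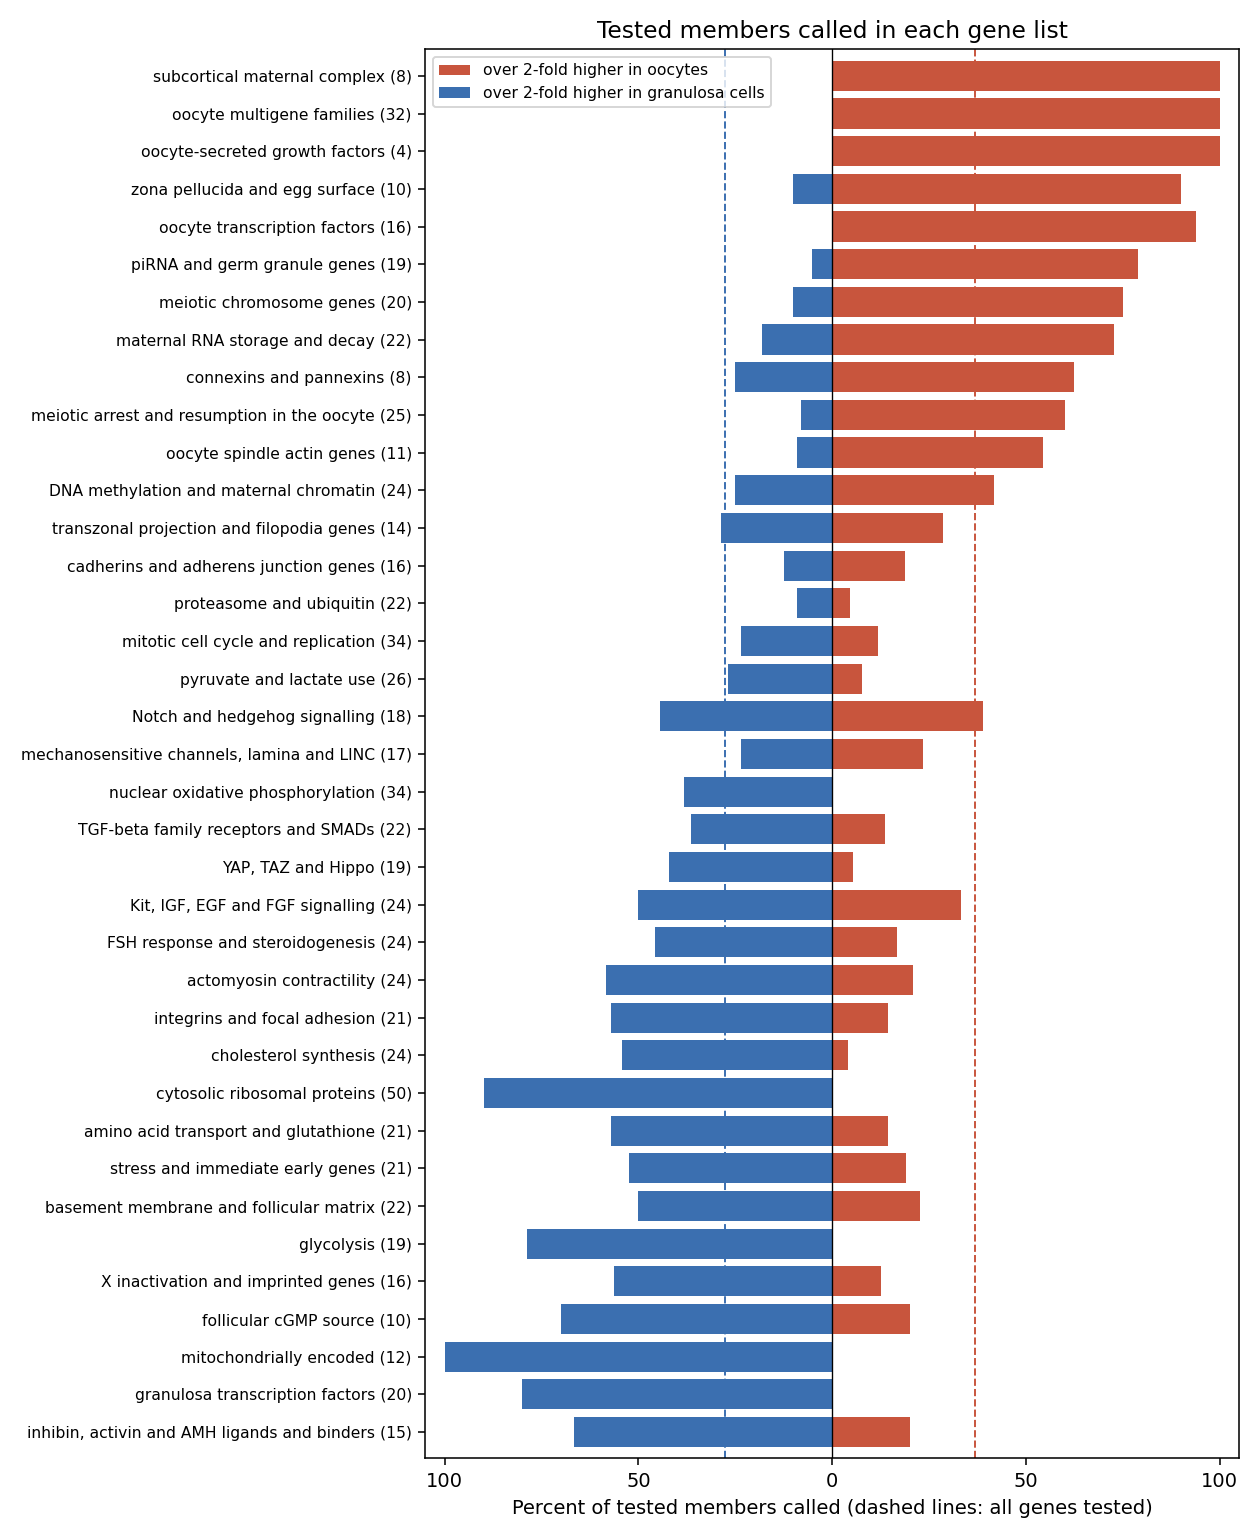
Percent of the tested members of 37 gene lists called over 2-fold higher in oocytes (right) and in granulosa cells (left), with the number tested in brackets and the lists ordered by median log2 difference. Dashed lines mark the shares over all genes tested, 36.9% and 27.7%.

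A few abundant genes were alike in both cell types. Hnrnpc, an RNA binding protein, stood at 504, 485, 459 and 426 CPM in oocytes and at 447, 478, 458 and 419 CPM in granulosa cells. H3f3b, Naca, Ptp4a1 and Sdc1 were also among the 6 most abundant genes with a log2 difference under 0.2 and no call. This depends on the scaling: with upper quartile scaling Hnrnpc and H3f3b were called lower in oocytes, at -0.24 and -0.28.

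Promoters were read for the oocyte-high and granulosa-high genes because oocyte genes such as Zp3 are known to carry E-boxes, the binding sites of helix-loop-helix factors like FIGLA. The sequences are RefSeq promoters of build GRCm38.p6, of which 32851 windows run from 250 bases before to 50 after a gene's start. By symbol 11422 of the 17301 tested genes (66.0%) matched. The 250 bases before the start are shown for 3 oocyte-high genes and for 2 granulosa-high genes of the results above, each in the gene's own direction, with every CANNTG in capitals. They lie at chr5:135979855-135980104 (plus strand), chr6:115944681-115944930 (plus), chrX:6320725-6320974 (minus), chr1:75507359-75507608 (plus) and chr17:89200676-89200925 (minus).
Zp3: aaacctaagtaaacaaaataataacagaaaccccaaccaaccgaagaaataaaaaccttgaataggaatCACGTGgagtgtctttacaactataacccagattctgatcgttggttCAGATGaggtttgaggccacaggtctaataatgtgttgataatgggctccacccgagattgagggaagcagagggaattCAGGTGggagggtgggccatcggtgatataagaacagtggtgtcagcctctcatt
H1f8: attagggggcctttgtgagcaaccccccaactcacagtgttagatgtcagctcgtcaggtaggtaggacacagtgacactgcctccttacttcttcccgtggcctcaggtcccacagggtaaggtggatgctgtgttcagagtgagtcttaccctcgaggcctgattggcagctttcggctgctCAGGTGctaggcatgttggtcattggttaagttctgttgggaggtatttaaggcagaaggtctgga
Bmp15: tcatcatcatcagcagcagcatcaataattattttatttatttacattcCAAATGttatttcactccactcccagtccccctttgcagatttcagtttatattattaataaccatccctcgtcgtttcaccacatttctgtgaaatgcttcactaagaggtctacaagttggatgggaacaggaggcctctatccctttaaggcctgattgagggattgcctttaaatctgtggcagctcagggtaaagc
Inha: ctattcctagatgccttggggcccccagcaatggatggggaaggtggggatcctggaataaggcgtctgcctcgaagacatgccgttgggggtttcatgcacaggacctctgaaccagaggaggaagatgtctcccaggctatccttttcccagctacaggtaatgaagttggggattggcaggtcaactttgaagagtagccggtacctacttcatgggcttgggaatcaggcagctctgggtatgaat
Fshr: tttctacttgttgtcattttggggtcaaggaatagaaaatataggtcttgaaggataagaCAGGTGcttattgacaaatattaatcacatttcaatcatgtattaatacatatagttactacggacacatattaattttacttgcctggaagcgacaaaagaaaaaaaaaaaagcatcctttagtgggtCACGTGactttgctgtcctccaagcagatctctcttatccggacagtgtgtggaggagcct

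Zp3 held 3 CANNTG, at 181, 134 and 55 bases before the start, and the last of them is CAGGTG. H1f8 held 1, a CAGGTG at 66 bases before the start, and Bmp15 held 1 at 201 bases before it. Inha held none and Fshr 2. CANNTG was found in 72.3% of all promoters in the 300-base window and in 65.4% of those of tested genes. Only tested genes could be called, so the second share is the background of the calls. For oocyte-high, granulosa-high and neither-way genes the shares were 70.9%, 65.0% and 61.0%. CACCTG or its reverse complement CAGGTG, which is a subset of CANNTG, was found in 20.2% of all promoters and 19.1% of those of tested genes. Its shares in the same 3 groups were 23.6%, 16.9% and 16.7%. AAGGTCA, a site bound by NR5A factors, was searched on both strands. It was found in 4.72% of all promoters, in 3.32% of those of tested genes and in 3.39% and 3.34% of the oocyte-high and granulosa-high ones. These are shares of letters in a window and carry no test.

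The annotation class of the genes differed between the directions. Of the tested genes 15684 (90.7%) matched the GENCODE M21 annotation by identifier. Of 13426 protein-coding genes 32% were higher in oocytes and 29.3% in granulosa cells, with a median log2 difference of 0.01. Of 1867 long non-coding genes 52.0% were higher in oocytes and 23.0% in granulosa cells. On the X chromosome 29.7% of 538 genes were higher in oocytes and 39.4% in granulosa cells, against 35.0% and 28.0% of 15113 autosomal genes.

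The same comparison in treated follicles gave lists of similar size. In blebbistatin 34.4% of 16440 tested genes were over 2-fold higher in oocytes and 24.8% in granulosa cells, and in dextran 37.6% and 30.0% of 17421. The treated comparisons use their own 4 oocyte and 4 granulosa cell libraries and share none with the control. Of the control oocyte-high genes 80.9% were also called in blebbistatin (91.2% of the blebbistatin list) and 91.1% in dextran (88.8% of the dextran list). Of the granulosa-high genes 74.2% and 91.0% were (87.4% and 83.7% of the treated lists). Gdf9, Zp3, Inha, Fshr, Kit, Kitl, Gja1 and Gja4 were called in the same direction in all 3. Cd68, a lysosomal glycoprotein of phagocytes, was the 1 gene called in opposite directions, 2.48 in control and -4.25 in blebbistatin, and the difference between these did not pass (edgeR interaction test, adjusted p = 0.087).

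The difference between cell types depended on treatment for 10 of 20601 genes in blebbistatin and for 0 in dextran by edgeR's interaction test over all 24 libraries, with 11.3% and 9.28% of genes under an unadjusted p of 0.05. Of genes named here these were Jag2, Uchl1 and Tpm1. Uchl1 was higher in oocytes by 4.41 in control and by 5.82 in blebbistatin (interaction 1.39, adjusted p = 0.026). Tpm1, a tropomyosin, stood at 215, 97.5, 124 and 211 CPM in granulosa cells and 29.8 to 34.0 CPM in oocytes of control follicles, a log2 difference of -2.35 in control and -4.30 in blebbistatin (interaction -1.98, adjusted p = 0.046). Jag2 was higher in oocytes by 5.91 and 9.29 (interaction 3.43, adjusted p = 0.0499).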

How the data were processed

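The authors deposited estimated counts per gene from salmon, in 1 table per cell type, per the labels. Per the submitters' processing notes the build was GRCm39. No aligner setting, annotation release or strand setting is given in the sources used here. The labels name no molecular identifiers, so reads of 1 molecule may be counted repeatedly, and depth (14729600 to 18399600 counts per oocyte library, 16432300 to 22431000 per granulosa cell library) limits counting error only. The 8 control columns of the tables were joined by gene identifier, rounded to whole numbers, filtered with filterByExpr, scaled with TMM and fitted with edgeR 4.0.16 in R 4.3.3 (robust glmQLFit, glmQLFTest, and glmTreat against a log2 difference of 1, prior count 2). Benjamini-Hochberg adjustment of p-values ran over all 17301 tested genes. CPM are TMM-scaled; shares of counts and marker sums for other cell types use unscaled totals. Intervals are exact 95% intervals for counting error.

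Gene lists (45 lists, 918 entries, 4 symbols absent from the tables) and the comparison itself were chosen with earlier results of these data known, and no list carries a p-value. Named genes are the 12 of largest difference per direction with a mean of at least 20 CPM, anchors of each list, up to 2 further members per list and direction, members of the 20 pairs, and the 6 most abundant genes of log2 difference under 0.2. Other genes are named to say which members a count covers. Genes shown by their values in every library were in part chosen after those values were seen.

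The steps were tested on simulated counts (16735 genes, 200 drawn to change). Genes changed 2-fold were recovered in 14.0% of cases and genes changed 8-fold in 86.9%, and 3 of 103 calls were false. The 2-fold test recovered 77.8% of the 8-fold genes, and 0 of its 77 calls were false. Replicates differed by far more than sampling noise (smallest chi-square per gene 16.9), so none was counted as a duplicate. Correlations of log2 CPM between replicates were 0.913 to 0.965 in oocytes and 0.969 to 0.987 in granulosa cells. Alternatives were other scalings, filters, limma voom 3.58.1, DESeq2 1.42.0, all 24 libraries, a replicate block and leaving out libraries. Some genes that the naming rule selects are not reported here.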

Additional observations from a re-analysis of the deposited data

Results flagged for a closer look

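Of 156 sets of 4 libraries (12 library measures and 66 genes shown library by library, each in both cell types), 21 held a library whose gap to its nearest neighbour was over 0.829 of the range. For values drawn from 1 normal distribution such a gap arises in about 1 of 20 sets. A set with counts in only 1 library has it by construction, so 21 of 156 cannot be read against that rate. Oocyte replicate 2 stood apart with high values of Inha (1838 CPM against 12.8 to 324), Hey2 (16.2 against 5.19 to 6.45), Cyp51 (55.4 against 12.9 to 14.1), Slc38a3 (3.30 against at most 0.329) and Lamb1 (918 against 672 to 708), and of Rec8 (0.594 against 0). It was the oocyte library with the highest granulosa cell marker level, and Lamb1 is an oocyte-high gene. The part of that marker level in the other values was not tested.

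Oocyte replicate 4 held 102.7 CPM of erythroid markers against 0.104 to 1.12 CPM in the other oocyte libraries, almost all of it from globin genes. It was also alone in having no count of Jun (0 CPM against 0.790 to 0.930). Oocyte replicate 1 was low in Col4a1 (1.24 CPM against 4.65 to 5.02). Granulosa cell replicate 4 was high in leukocyte markers (14.9 CPM against 3.51 to 4.84), in Lamb1 (72.8 against 25.6 to 29.9) and in Esr2 (281 against 224 to 227), and granulosa cell replicate 1 in Spry4 (3.37 against 0.0426 to 0.275). Gdf9 was lowest in granulosa cell replicate 1 (0.427 CPM against 0.784 to 0.852).

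Among the genes shown library by library, 7 oocyte-high genes had counts in only 1 granulosa cell library: H1f8 and Padi6 at 0.0413 CPM, Bmp15 at 0.289 CPM and Btg4 at 0.165 CPM in replicate 2, Cdh1 at 0.213 CPM in replicate 3, and C1qb at 0.0854 CPM and Ddx4 at 0.384 CPM in replicate 1. Genes not shown library by library were not looked at for this.

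The difference between oocytes and granulosa cells was itself different in blebbistatin for Jag2 (by 3.43 on the log2 scale, adjusted p = 0.0499), Uchl1 (by 1.39, adjusted p = 0.026) and Tpm1 (by -1.98, adjusted p = 0.046), from edgeR's interaction test.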

How the results depend on the processing

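Every count of genes called stayed within 1.5 times its value under each alternative run. Over 2-fold, the oocyte-high count ranged from 4482 (mean of at least 5 CPM in 1 cell type) to 9106 (no filter beyond 1 count) and the granulosa-high count from 3994 to 5976. Without any 1 library the counts were 6399 to 7099 and 4521 to 5302. Leaving out oocyte replicates 1 and 2, an alternative chosen after seeing the data, gave 6519 and 5976. With upper quartile scaling or library totals the median of all genes moved by -0.30 and -0.29, and the oocyte share of genes called fell from 55.0% to 50.3%. Genes near 0 turned with it: Hnrnpc and H3f3b were called at -0.24 and -0.28 with upper quartile scaling and at -0.23 and -0.28 with library totals. In 3 lists, markers of other cell types with few tested members, a median beyond the spread between libraries changed sign. Leukocyte markers went to -0.14 with no filter, and surface epithelium markers to -0.20 with no filter and -3.92 with the stricter one. Erythroid markers went to 3.84 with no filter, 4.86 with the stricter one and 5.14 without oocyte replicates 1 and 2. Of 855 list medians under alternatives, 676 moved by less than the spread between libraries. No other named gene or list was counted as reversed. A gene needed a call in either fit, and a list a main median beyond that spread. The median of the filopodia list, within it, went from 0.11 to -0.16 without oocyte replicates 1 and 2. Of 187 called genes that the text names, 27 lost the 2-fold call under at least 1 alternative, and 15 did so when 1 library was left out. Without oocyte replicate 1 the call was lost for Inha, Gja1, Igf1, Foxl2, Ihh, Hes1, Pde5a, Fam13a, Nectin1, Piezo1 and Vwf, and without oocyte replicate 3 for Igf1, Foxl2, Ihh, Hes1, Pde5a, Piezo1, Ccnd2, Smad7 and Uhrf2. Egfr and Piezo1 lost it without oocyte replicate 4. Leaving out granulosa cell replicates 1 to 4 in turn lost it for 5, 6, 5 and 3 genes, all of them among Foxl2, Igf1, Ihh, Piezo1, Smad7, Vwf and Egfr. With no filter beyond 1 count it was lost for 18 genes, with DESeq2 for 9 and with a replicate block for 6. No pairing by replicate number was seen: deviations of same-numbered libraries correlated at -0.0266 to 0.0162, and 1 of 4 correlated best with its own number. This cannot exclude that same-numbered libraries came from the same follicles, because the 2 cell types need not deviate alike. The labels do not say. With a replicate block the counts were 7513 and 5984 for any difference and 6140 and 4458 over 2-fold. Depth limits the oocyte-high genes with no granulosa count to lower bounds.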

Other observations

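Some genes that serve as markers of other cell types in whole ovary were higher in oocytes here. Pecam1, an adhesion protein of endothelium, stood at 121, 113, 69.9 and 83.5 CPM in oocyte replicates 1 to 4 and at 2.01, 1.28, 0.639 and 0.439 CPM in granulosa cells (log2 difference 6.32 ± 0.50, adjusted p = 9.93e-06). Of the 10 endothelial markers 6 could be tested, and Tek, Tie1 and Vwf were also called higher in oocytes, at 7.84 to 16.4, 1.47 to 4.75 and 0.734 to 3.18 CPM there. Cdh5 and Egfl7 were called higher in granulosa cells, and Cdh5 had no count in the oocyte libraries. C1qb, a complement subunit of macrophages, stood at 44.3, 46.8, 32.7 and 40.8 CPM in oocytes, while the macrophage marker Adgre1 had no count in any control library. Of the 10 macrophage and leukocyte markers 4 could be tested, and Csf1r and Cd68 were also called higher in oocytes, by 1.88 and 2.48 on the log2 scale. Cd14 was called higher in granulosa cells, at -3.34 (-4.575 without oocyte replicates 1 and 2). Myh11, a smooth muscle myosin, stood at 20.5, 21.4, 28.3 and 29.5 CPM in oocytes against 0.248 to 1.20 CPM in granulosa cells. The log2 differences of C1qb and Myh11 were 8.32 and 4.97 in control but 0.47 and 1.17 in blebbistatin, where neither was called. Both were called for oocytes in dextran. The change from control to blebbistatin did not pass for either (edgeR interaction test, adjusted p = 0.087 and 0.256). Lrrn4 and Upk3b, markers of surface epithelium, were at least 597-fold and at least 137-fold higher in oocytes, with no count in granulosa cells. Of the 10 surface epithelium markers 5 could be tested, and Muc16 was also called higher in oocytes. The keratins Krt18 and Krt8 were instead called higher in granulosa cells, at -4.26 and -3.75 (-6.37 and -6.48 without oocyte replicates 1 and 2). The part of such cells in these values was not tested.

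Of the piRNA and germ granule genes 15 of 19 tested were higher in oocytes. Ddx4, a germ cell helicase, stood at 49.7, 50.6, 36.7 and 23.9 CPM in oocytes and was at 0 in 3 granulosa cell libraries. Gtsf1 and Henmt1 were at least 17300-fold and at least 7440-fold higher. Tex15 was the 1 member called for granulosa cells, at 321, 348, 422 and 319 CPM there and 78.1, 168, 73.6 and 53.3 CPM in oocytes (log2 difference -1.92, adjusted p = 0.00622). The mechanosensitive channel Piezo1 was higher in granulosa cells, at 2.96 to 6.11 CPM against 0.673 to 2.44 CPM. Piezo1 lost the 2-fold call in several fits that left out 1 library, at an adjusted p of up to 0.0751. In the fit to all 24 libraries it was not called for any difference either (edgeR quasi-likelihood test, adjusted p = 0.056). The lamina gene Lbr was higher in oocytes, at 398 to 569 CPM against 63.3 to 94.2 CPM.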
